A study of Mus musculus with 6 samples.

Results

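The 10 core genes of the circadian clock, Arntl, Clock, Npas2, Cry1, Cry2, Per1, Per2, Per3, Nr1d1 and Nr1d2, were examined in mouse heart with and without the melanocortin-4 receptor. They were taken by gene symbol from the deposited expression table, in which each of the 10 occurred once among 54532 genes. The study compared 3 Mc4r KO mice, homozygous for the loss of Mc4r and listed as Mc4r knockout, with 3 WT mice, all male and 12 weeks of age, with 1 library per mouse. The mice were littermates from matings of heterozygous parents on a C57B/6/N background, kept on standard chow and a 12-hour light/dark cycle and killed under tribromoethanol anesthesia. The deletion is carried by the whole animal, so the heart was exposed both to any local loss of the receptor and to its loss in the brain. The tissue is named heart in one label and muscle in another, and the authors describe the sequenced tissue as left ventricle. The hour of the day at which each heart was collected was not given in the sources used here.

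The clock is a loop of transcription and feedback that runs in nearly all mammalian cells, heart muscle included. BMAL1, the protein made from Arntl, pairs with CLOCK or NPAS2 and activates the Per, Cry and Nr1d genes through E-box elements. PER and CRY proteins return to the nucleus and repress their own activators, while the nuclear receptors REV-ERBα and REV-ERBβ, made from Nr1d1 and Nr1d2, repress Arntl through elements that they share with the activating ROR receptors. In rodent tissues the transcripts of Arntl and Nr1d1 are therefore known to peak at nearly opposite times of day.

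The values are FPKM, read counts divided by gene length and by a size for each library, so levels can be compared between genes. Each library's FPKM, once multiplied by length, came in equal steps, each taken as 1 read, from which the reads on each gene were recovered. The paper aligned paired-end reads, so what is named a read here may be a pair of reads. Between 14691076 and 16047003 reads were counted on genes per library. The library size implied by the steps was not a plain depth. It was 14100283 in WT replicate 1, below its 14767929 reads on genes, and 17030632 in WT replicate 3, above its 16047003. It was also below in WT replicate 2 and Mc4r KO replicate 2, and above in the other libraries. How this size was set was not given in the sources used here. Mc4r itself had 2 reads in WT replicate 3 and 0 in the other 5 libraries, which is under the limit of 3 reads that a count of 0 allows, so the genotype could not be checked from this gene. WT replicate 3 stood apart from its group, since across 11297 genes its correlation was 0.962 with Mc4r KO replicate 1 and 0.946 and 0.952 with WT replicates 1 and 2. All 5 cardiomyocyte markers were detected, and their summed FPKM ran from 9666 to 10276 in WT hearts and from 12188 to 13713 in Mc4r KO hearts. The summed FPKM of 5 fibroblast and smooth muscle markers lay between 166 and 180.1 in WT and between 127 and 149 in Mc4r KO, and the 4 B cell markers between 1.19 and 2.80 in WT and between 0.422 and 0.590 in Mc4r KO. The 5 adipocyte markers summed to between 0.466 and 0.876 in WT and between 0.0283 and 0.223 in Mc4r KO, with Retn and Ucp1 at 0 in every library. The 5 atrial markers summed to 797.5 in WT replicate 3 and to between 6.29 and 137 in the other libraries, the 5 erythrocyte markers ranged from 620.3 to 6344, and the 5 skeletal muscle markers from 0.716 to 1.61 with Myh4 at 0. The share of all FPKM on the mitochondrial chromosome was 59.3%, 57.4% and 47.1% in WT replicates 1 to 3 and 43.0% to 46.6% in Mc4r KO. WT replicate 3 thus lay nearer to the Mc4r KO libraries than to the other WT libraries. The part of these differences in the results below was not tested. In bulk tissue, fewer cells of a type and less RNA per cell cannot be told apart.

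To see how the loop stood in these hearts, the levels of the 10 genes were first ordered over the 6 libraries. Nr1d1 and Nr1d2 led, with mean FPKM of 33.9 and 23.8, followed by Per1 at 17.5, Per2 at 7.58, Cry2 at 6.64, Per3 at 5.33, Cry1 at 3.37 and Clock at 2.89. Arntl and Npas2 came last, with mean FPKM of 0.394 and 0.309. In every library Nr1d1 was above Nr1d2, Per1 above Per2, Per3 above Cry1 and Clock above Arntl. Only the steps from Per1 to Per2 and from Clock to Arntl were without overlap of the ranges over libraries. The other 7 neighbouring pairs, such as Per2 and Cry2 or Arntl and Npas2, had ranges that overlapped over the libraries, although Nr1d1 was above Nr1d2 and Per3 above Cry1 within each of the 6. Of the 18035 genes that reached a mean FPKM of 0.1, 94.5% lay below Nr1d1 and 23.2% below Arntl. By mean level, the repressors of Arntl thus stood high among the measured genes, while Arntl and the Clock paralog Npas2 stood low.

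**Figure D1:**
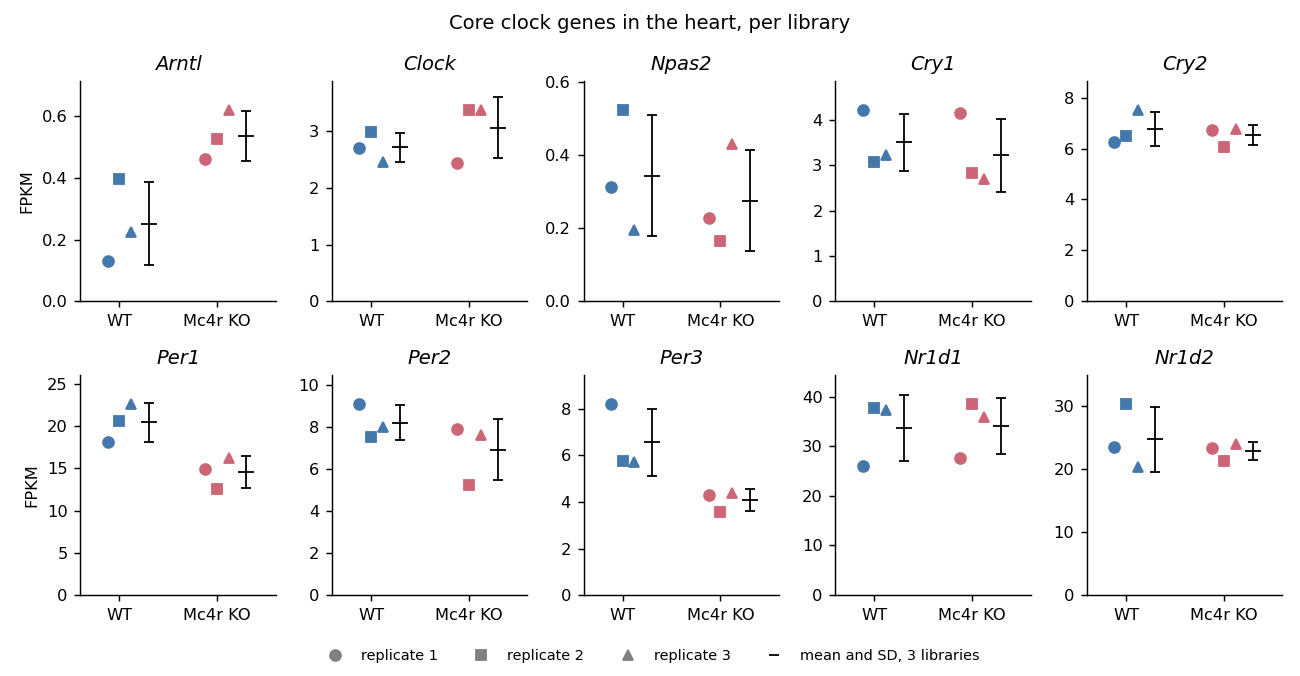
FPKM of the 10 core clock genes in each library, with 1 panel per gene, a separate vertical axis from 0 in each panel, WT in blue and Mc4r KO in red. Symbols mark the replicates, and the bar beside them gives the mean and SD of 3 libraries. The groups are separate in Arntl, where Mc4r KO is higher, and in Per1 and Per3, where it is lower, and they overlap in the other 7 genes.

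The groups were compared with limma on log2(FPKM + 0.1), on which scale the change of weakly expressed genes is understated. A gene was called when its adjusted p (Benjamini-Hochberg over the 18035 genes, two-sided) was under 0.05 and its log2 fold change exceeded 0.75 in size. None of the 10 clock genes was called, against 0.46% of all genes tested (83 genes, of which 68.7% were higher in Mc4r KO, a share of 39.0% when the libraries were scaled to the sum outside the mitochondrial chromosome). By limma, 3 of the 10, Arntl, Per1 and Per3, had an unadjusted p under 0.05, where the share over all genes was 20.9%, with 1 of them on the higher side (12.0% of all genes) and 2 on the lower side (8.83%), and limma voom on the recovered reads also called 0 of the 10. The same 3 genes were those in which the groups had no overlap, as in 26.4% of all genes. With 3 of 10 against these backgrounds, the clock genes did not stand out from the transcriptome by count. The log2 fold change was below 0 in 7 of the 10, as in 51.2% of all genes, with a median of -0.11 over the 10 and -0.01 over all genes. The scaling without mitochondrial genes moved both medians, to -0.31 over the 10 and -0.19 over all genes, so that the gap between them was -0.10 before and -0.11 after. No exact permutation test of 3 mice against 3 can give a p below 0.1, which was the value for Arntl, Per1 and Per3.

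Of the activators, Arntl encodes BMAL1, the usual partner of CLOCK. The WT hearts had an FPKM of 0.132, 0.398 and 0.226 for replicates 1 to 3, the order kept throughout, and the Mc4r KO hearts had 0.462, 0.525 and 0.621. No WT value reached the lowest Mc4r KO value, and the WT values were spread more widely. The mean was 0.536 ± 0.0801 in Mc4r KO and 0.252 ± 0.135 in WT (SD, n = 3 each). The log2 fold change was 0.92 with a standard error of 0.34 and a 95% interval from 0.12 to 1.72, and the adjusted p from limma was 0.194. With a pseudocount of 1 the log2 fold change was 0.30, since the values are small against it. The reads behind these values were few, 14, 43 and 29 in WT and 54, 60 and 75 in Mc4r KO. By counting error alone, the exact Poisson 95% interval of the FPKM ran from 0.0722 to 0.221 in WT replicate 1 and from 0.288 to 0.536 in WT replicate 2, so these 2 WT libraries differed by more than counting error. The interval of WT replicate 2 overlapped that of Mc4r KO replicate 1, which ran from 0.347 to 0.603. Such intervals do not cover the spread between mice or repeated copies made by PCR.

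Arntl (ENSMUSG00000055116) lies on the forward strand of chromosome 7 of GRCm38, from 113207465 to 113314126, and 0.439% of its exonic bases overlap an exon of Gm45355 on the other strand. To show where the REV-ERB and ROR receptors can bind, the 300-base RefSeq windows (GRCm38.p6) from 250 bases before to 50 after the annotated starts of the clock genes were searched on both strands for the element TAGGTCA and its form TGGGTCA. Of the 10 genes, 9 have such a window, with 13 windows between them. A gene was counted if any of its windows held the form, whereas the shares given are per window. Only Arntl held TAGGTCA, which occurs in 2.61% of all 32851 windows. TGGGTCA was in none of the 9, against 3.98% of all windows. The E-box CACGTG was found in Cry1 and Per1 (7.15% of all windows) and its variant CACGTT in Cry1, Cry2 and Nr1d1 (4.68%). The 30 bases around the match in each gene but Per1 are shown 5′ to 3′ on the gene's strand, with the matched letters in capitals. A CACGTT on the opposite strand reads AACGTG. The positions are chr7:113207529-113207558 for Arntl, chr10:85185106-85185135 for Cry1, chr2:92434218-92434247 for Cry2 and chr11:98775388-98775417 for Nr1d1, of which the last 3 lie on the reverse strand.
Arntl: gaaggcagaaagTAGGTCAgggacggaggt
Cry1: gaAACGTGaggtgccggtggtCACGTGggg
Cry2: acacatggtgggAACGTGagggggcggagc
Nr1d1: cgcacagatctcAACGTGccggctgctgga
The Arntl match begins at base 31 of the transcript, while the Cry1 E-box begins 60 bases and the Nr1d1 variant 28 bases before the start. A match of letters is a description of the sequence and does not show binding.

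The partners of Arntl did not differ beyond their spread. Clock, which encodes the usual partner of BMAL1, had an FPKM of 2.71, 2.98 and 2.46 in WT hearts and 2.44, 3.38 and 3.36 in Mc4r KO hearts. Mc4r KO replicate 1 was the lowest of all 6 and the other Mc4r KO libraries the highest. Its log2 fold change was 0.16 (standard error 0.16, 95% interval -0.22 to 0.53, adjusted p = 0.614, limma), and -0.03 with the scaling outside the mitochondrial chromosome. Npas2, the paralog that can replace CLOCK, was at 0.311, 0.523 and 0.196 in WT and at 0.229, 0.165 and 0.429 in Mc4r KO. These values rest on between 12 and 36 reads per library. With a log2 fold change of -0.24 and a 95% interval from -1.20 to 0.72 (adjusted p = 0.782, limma), the data set no narrow limit on a difference in Npas2. The libraries of a group differed by more than counting error, since the exact Poisson 95% interval was 0.366 to 0.724 in WT replicate 2 and 0.112 to 0.318 in WT replicate 3.

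Among the repressors, Per1 and Per3 had lower values in every Mc4r KO heart than in any WT heart, and neither was called. Per1, which is known to respond quickly to outside signals such as hormones, had an FPKM of 18.1, 20.6 and 22.7 in WT hearts and 14.9, 12.5 and 16.2 in Mc4r KO hearts. The highest Mc4r KO value, replicate 3, was below the lowest WT value, replicate 1. The means were 14.6 ± 1.87 in Mc4r KO and 20.5 ± 2.31 in WT (SD, n = 3 each), from 1072 to 2173 reads per library. This was a log2 fold change of -0.49 (standard error 0.13, 95% interval -0.79 to -0.19, unadjusted p = 0.00631, adjusted p = 0.108, limma). With limma voom the adjusted p was 0.0464, and Per1 was still not called because its change was under the fold threshold. Per3, whose loss is known to have mild effects on the clock compared with that of the other Per genes, was at 8.23, 5.77 and 5.70 in WT and at 4.31, 3.56 and 4.39 in Mc4r KO. The highest value came from WT replicate 1, and the other WT libraries also lay above all Mc4r KO libraries. Its means were 4.08 ± 0.459 in Mc4r KO and 6.57 ± 1.44 in WT (SD, n = 3 each), with 519 to 1115 reads per library. The log2 fold change of -0.66 (standard error 0.17, 95% interval -1.05 to -0.26, unadjusted p = 0.00564, adjusted p = 0.107, limma) also missed the fold threshold, and limma voom gave an adjusted p of 0.0363. With the mitochondrial share as a covariate the adjusted p was 0.612.

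Per2, the Per gene whose loss is known to disturb rhythms most clearly, did not separate the groups. Its FPKM was 9.13, 7.53 and 8.01 in WT and 7.91, 5.26 and 7.65 in Mc4r KO. Only Mc4r KO replicate 2 lay below the WT range, and the other Mc4r KO libraries were inside it. Its log2 fold change was -0.26 (standard error 0.17, 95% interval -0.66 to 0.14, adjusted p = 0.433, limma), and it was -0.07 without Mc4r KO replicate 2.

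The sequences before a RefSeq start of Per1 and Per3, the Per genes without overlap between the groups, held different elements among the exact forms searched. Forms that differ by 1 base, such as ttatgcaa in Per1, were not counted. The 250 bases before the start are at chr11:69098699-69098948, forward strand, for Per1 and at chr4:151044666-151044915, reverse strand, for Per3. This Per1 start lies inside the gene as measured here, which spans 69095217 to 69109960, so the bases are not upstream of the whole gene. The Per3 bases begin just beyond its gene, which ends at 151044665. Only windows that held a match were chosen for printing. They are printed 5′ to 3′ with the matches in capitals.
Per1: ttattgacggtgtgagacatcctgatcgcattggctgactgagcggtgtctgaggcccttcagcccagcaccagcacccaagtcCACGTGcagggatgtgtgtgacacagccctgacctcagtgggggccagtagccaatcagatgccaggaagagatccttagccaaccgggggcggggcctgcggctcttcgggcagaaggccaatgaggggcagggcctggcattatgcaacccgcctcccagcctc
Per3: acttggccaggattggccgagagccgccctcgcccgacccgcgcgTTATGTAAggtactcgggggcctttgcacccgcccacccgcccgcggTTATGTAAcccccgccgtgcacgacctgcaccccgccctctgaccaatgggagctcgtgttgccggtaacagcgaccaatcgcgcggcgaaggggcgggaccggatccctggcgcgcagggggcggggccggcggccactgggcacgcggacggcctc
Per1 held 1 E-box CACGTG, beginning 166 bases before the start. Per3 held no E-box in this window and the D-box TTATGTAA at 2 places, beginning 205 and 158 bases before the start. A D-box is the element bound by the activators Dbp, Tef and Hlf and by their competitor Nfil3. TTATGTAA was found in 0.938% of all windows and, among the clock genes with a window, only in Per3, while the other D-box form searched, TTACGTAA, was in 0.119% of all windows and in none of theirs.

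The cryptochromes, which carry most of the repression of the CLOCK complex, overlapped between the groups. Cry1 had an FPKM of 4.23, 3.06 and 3.23 in WT and 4.15, 2.84 and 2.69 in Mc4r KO, so that replicate 1 was the highest of each group. Its log2 fold change was -0.13 (95% interval -0.60 to 0.34, adjusted p = 0.749, limma). Cry2 was at 6.27, 6.48 and 7.53 in WT and at 6.75, 6.07 and 6.77 in Mc4r KO. It was the steadiest of the 10 genes, with a coefficient of variation of 7.66% over the 6 libraries against 46.8% for Arntl. For Cry2 the log2 fold change was -0.05 (95% interval -0.30 to 0.21, adjusted p = 0.842, limma). Exons of a gene on the opposite strand cover 4.67% of the exonic bases of Cry2, and 3.29% of its 50-base words also occur in transcripts of other genes. The direction turned in 2 of 20 alternative fits for Cry1 and in 2 of 20 for Cry2, which leave out a library or add the mitochondrial share as a covariate.

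The REV-ERB genes were abundant in both groups. Nr1d1 had an FPKM of 26.0, 37.8 and 37.3 in WT and 27.6, 38.6 and 36.0 in Mc4r KO. Replicate 1 was the lowest in each group, and the other libraries of both groups lay close together. The log2 fold change was 0.02 (standard error 0.18, 95% interval -0.41 to 0.45, adjusted p = 0.963, limma), and its sign turned in 7 of 20 alternative fits, both other scalings included. Thra, on the opposite strand, overlaps 8.55% of the exonic bases of Nr1d1, and whether the counting used the strand was not given in the sources used here. Nr1d2 was at 23.5, 30.4 and 20.3 in WT and at 23.3, 21.4 and 24.0 in Mc4r KO. WT replicate 2 was the highest and WT replicate 3 the lowest of the 6, so the Mc4r KO libraries lay inside the WT range. Nr1d2 had a log2 fold change of -0.09 (95% interval -0.44 to 0.25, adjusted p = 0.756, limma), and 5.13% of the 50-base words of Nr1d2 also occur in transcripts of AC170187.1. The intervals of both REV-ERB genes exclude a log2 fold change of 0.75 in either direction.

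**Figure D2:**
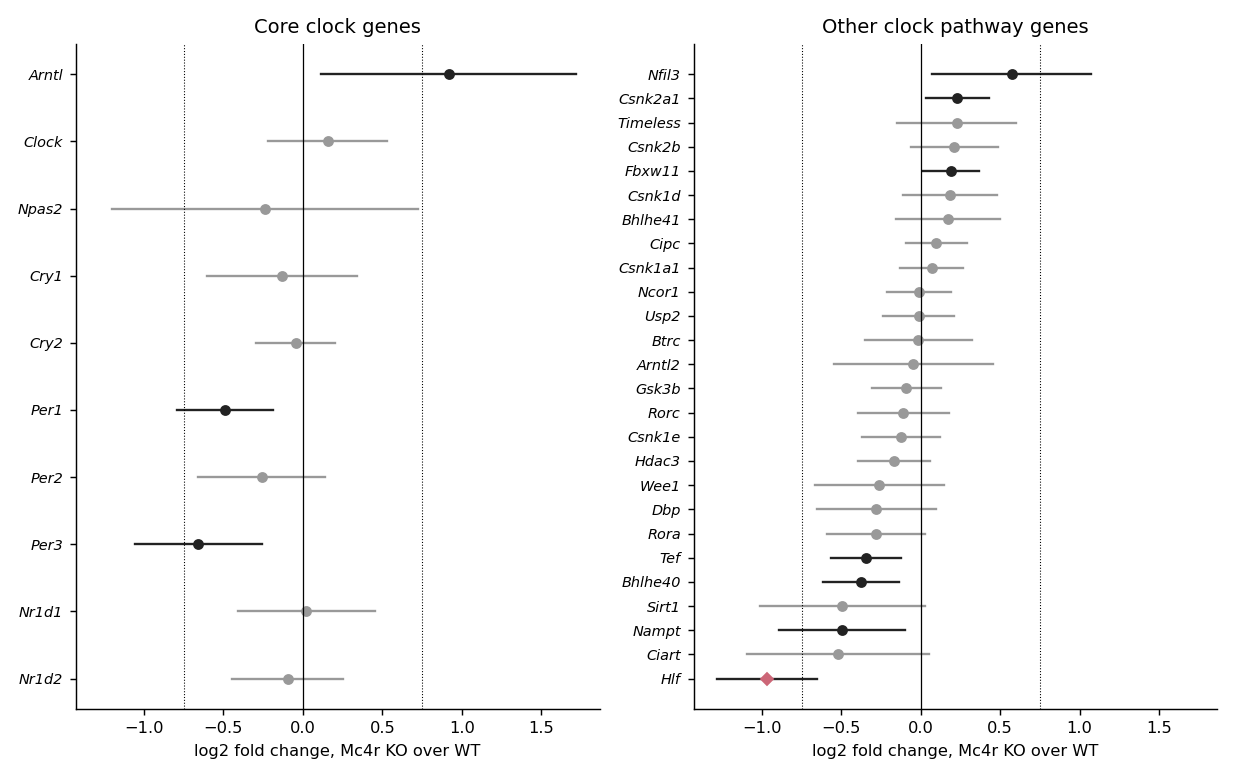
Log2 fold change, Mc4r KO over WT, of the 10 core clock genes and of other genes of the clock pathway, with 95% intervals from limma. Black marks an unadjusted p under 0.05, gray the rest, the red diamond a called gene, and dotted lines the fold threshold of 0.75. Arntl, Per1 and Per3 are the core genes whose intervals exclude 0, and Hlf, at -0.97, is the 1 called gene.

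To make the comparison depend less on the scaling of a library, Arntl was also set against the genes of the opposite arm within each library. The difference between the log2(FPKM + 0.1) of Arntl and that of Per3 was -5.17, -3.56 and -4.15 in WT hearts and -2.97, -2.55 and -2.64 in Mc4r KO hearts. The mean was -4.29 ± 0.813 in WT and -2.72 ± 0.223 in Mc4r KO (SD, n = 3 each), a shift of 1.57. The shift was 1.41 for Arntl against Per1, 1.18 against Per2, 1.01 against Nr1d2 and 0.894 against Nr1d1. In all 5 contrasts the Mc4r KO libraries were above the WT libraries without overlap. Arntl alone was already higher without overlap, and Per1 and Per3 lower without overlap. The contrasts with Per1 and Per3 therefore had to separate the groups and add nothing to those values. The log2 fold change was 0.92 for Arntl, against 0.02 for Nr1d1 and -0.09 for Nr1d2. How many other genes would separate the groups when set against Arntl was not computed. The contrasts share the same few Arntl reads, so they are not 5 separate observations, and no test was made of them. With a pseudocount of 1 the shifts were smaller, from 0.278 against Nr1d1 to 0.861 against Per3.

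**Figure D3:**
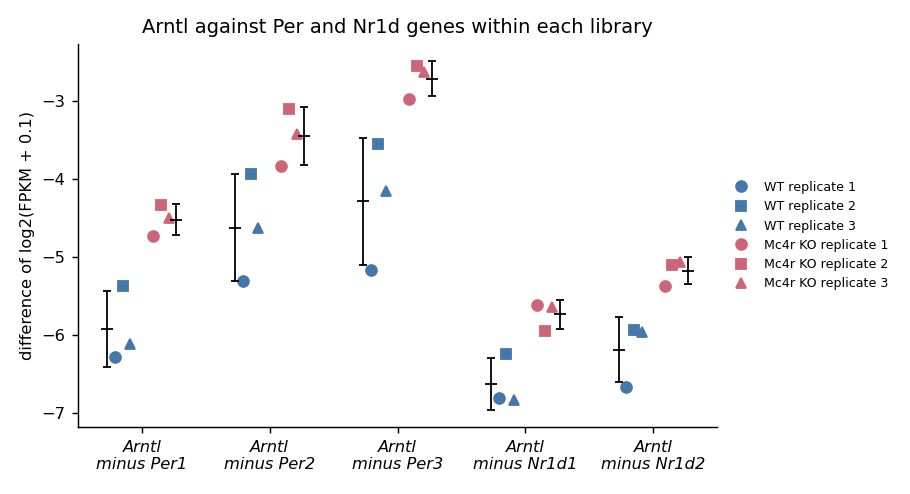
Difference between the log2(FPKM + 0.1) of Arntl and that of Per1, Per2, Per3, Nr1d1 and Nr1d2 within each library, WT in blue and Mc4r KO in red, with bars for the mean and SD of 3 libraries. All values are negative, since Arntl is the lower gene of each pair, and the Mc4r KO libraries lie nearer to 0 than the WT libraries in each contrast.

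The rest of the pathway was described from a list of 29 genes, of which 27 passed the filter on low values. The left-out genes were Rorb, with 4 to 17 reads per library, and the ubiquitin ligase gene Fbxl21, whose groups did not overlap but which had 13, 2 and 3 reads in WT and 2 in each Mc4r KO library. Limma called 1 of the 27, which was lower in the Mc4r KO mice (background 0.144% of all genes), and none that was higher (0.316%). An unadjusted p under 0.05 was seen in 7 of the 27 (20.9% of all genes), and no overlap between the groups in 8 (26.4%). The called gene was Hlf, one of the PAR bZIP factors that bind the D-box and carry the clock signal to metabolic genes. Its FPKM was 11.5, 10.3 and 10.8 in WT and 6.47, 4.61 and 5.60 in Mc4r KO, so that the lowest WT library was well above the highest Mc4r KO library. The means were 5.56 ± 0.930 in Mc4r KO and 10.9 ± 0.557 in WT (SD, n = 3 each). Hlf fell by 0.97 on the log2 scale (standard error 0.13, 95% interval -1.28 to -0.65, adjusted p = 0.0415, limma). The call was lost in 9 of 20 alternatives, among them the fits without WT replicate 1, WT replicate 2 and each Mc4r KO library, with adjusted p from 0.00502 to 0.245 over all 20. The log2 fold change of Hlf stayed between -1.16 and -0.84 in all 20, past the fold threshold in each.

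The other D-box factors were not called. Tef was at 38.1, 32.2 and 31.8 in WT and at 27.6, 26.0 and 26.4 in Mc4r KO, without overlap (log2 fold change -0.34, adjusted p = 0.12, limma). Dbp, at 29.6, 31.7 and 44.5 in WT and 26.0, 29.9 and 30.1 in Mc4r KO, overlapped (log2 fold change -0.28, adjusted p = 0.369, limma). Nfil3, the repressor at the same element, was at 3.99, 2.23 and 2.61 in WT and at 4.77, 4.29 and 3.88 in Mc4r KO, where only WT replicate 1 reached the Mc4r KO range (log2 fold change 0.57, adjusted p = 0.194, limma).

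Further genes of the pathway were without overlap and not called. Bhlhe40, whose product DEC1 competes for E-boxes, was at 13.0, 14.99 and 12.9 in WT and 10.4, 11.3 and 9.68 in Mc4r KO (log2 fold change -0.38, adjusted p = 0.118, limma). Nampt, the rate-limiting enzyme of NAD salvage and a known clock output, was at 55.9, 43.8 and 37.2 in WT and 34.6, 27.1 and 34.6 in Mc4r KO (log2 fold change -0.50, adjusted p = 0.167, limma). Rora, an activator at the elements that the REV-ERB receptors repress, had a log2 fold change of -0.28 (adjusted p = 0.279, limma). On the higher side in Mc4r KO were Csnk2a1, a catalytic subunit of casein kinase 2, with 0.23 (adjusted p = 0.193, limma) and 0.035 with the scaling outside the mitochondrial chromosome, and Fbxw11, a ubiquitin ligase subunit for PER proteins, with 0.19 (adjusted p = 0.214, limma), where that scaling gave -0.0032. The kinases of PER proteins Csnk1d, Csnk1e and Csnk1a1 overlapped between the groups, with log2 fold changes from -0.12 to 0.18.

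By pattern over the 6 libraries, the genes nearest to Arntl and Nr1d1 were sought among 11289 others whose mean FPKM reached 1. The measure was the root mean square difference between log2 values centred on each gene's own mean. Closest to Arntl were Tmem74b at 0.0867, Gm10709 at 0.143 and Gm12295 at 0.175, where Arntl itself varied by 0.568 around its mean. Nearest to Nr1d1 were Coil at 0.0509, Zfp568 at 0.0672 and Bcl3 at 0.0727, with a variation of 0.229 for Nr1d1 itself. With 6 libraries and so many genes searched, the nearness was not tested, and none of these 6 was called (adjusted p from 0.104 to 0.925, limma).

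**Figure D4:**
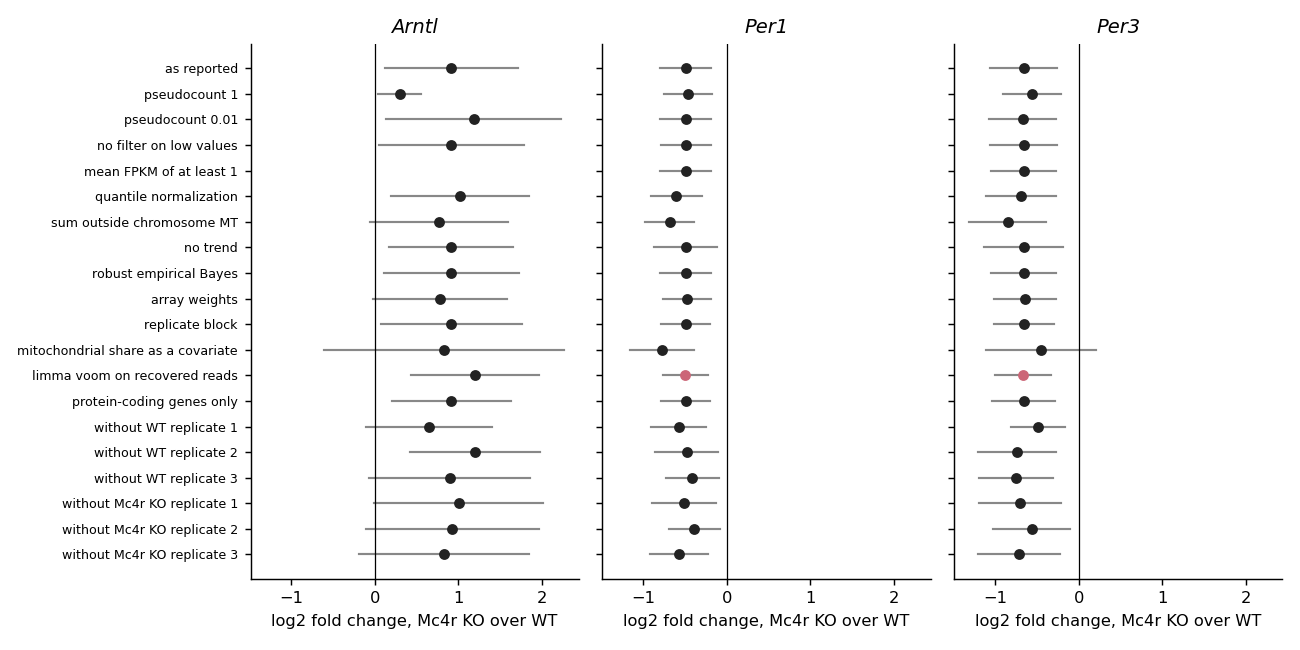
Log2 fold change, Mc4r KO over WT, of Arntl, Per1 and Per3 as reported and under the alternatives, with 95% intervals. Red points mark an adjusted p under 0.05, reached by Per1 (0.0464) and Per3 (0.0363) with limma voom. All points of Arntl lie above 0 and all points of Per1 and Per3 below it. Arntl, with a mean FPKM under 1, has no value under the stricter filter.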

How the data were processed

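RNA from 3 WT and 3 Mc4r KO hearts was sequenced after poly(A) enrichment. The authors filtered the reads, aligned them to mm10 with HISAT2 2.0.5 and counted them with featureCounts. The deposited values are FPKM, computed by the authors from gene length and mapped reads. The positions in the table are those of GENCODE M21 (GRCm38), in which 99.8% of the identifiers were found. Reads were recovered from FPKM times gene length (100% of values whole within 0.05 reads). Because FPKM are not counts, limma 3.58.1 (R 4.3.3) with an empirical Bayes trend and no covariate was used on log2(FPKM + 0.1), for genes whose mean FPKM reached 0.1, with the study's thresholds. The script was tested on simulated data. No label pairs libraries, and none were paired in the main fit. Over 11297 genes, the correlations of same-numbered deviations from the group means were -0.14, 0.01 and -0.08. Taken over these genes together, they cannot decide whether a number marks a pair. Overlaps and shared words of 50 bases were taken from M21, and sequences from RefSeq (GRCm38.p6). Protein sequences were not used here.

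Named were the 10 genes, the pathway genes called or without overlap, and the nearest genes by pattern, of which 1 pathway gene is not reported here; Dbp, Nfil3 and the Csnk1 genes were added after their values were seen. The members and lists were chosen with earlier results of these data known. The alternatives were 2 other pseudocounts, 2 other filters, 2 other scalings, limma without trend, robust or with array weights, a replicate block, the mitochondrial share as a covariate, limma voom, protein-coding genes only, a lower fold threshold and fits without each library. No label says that the mice were handled on separate days, so p-values measure the spread between these libraries. The paper mentions independent cohorts for its phenotypes, without saying whether the libraries came from them. Figures used Python 3.11.15 and matplotlib 3.10.9.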

Additional observations from a re-analysis of the deposited data

How the results depend on the processing

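None of the 10 clock genes was called under any of the 20 alternatives, fits without each library included (0 genes in each). The alternatives were not combined with each other. With limma voom, Per3 had a log2 fold change of -0.67 and an adjusted p of 0.0363, which is past the lower fold threshold, log2 of 1.5. Arntl stayed above 0 in its 19 alternatives (log2 fold change 0.30 to 1.202, adjusted p 0.0727 to 0.675), and Per1 (-0.78 to -0.39, adjusted p 0.0464 to 0.299) and Per3 (-0.85 to -0.45, adjusted p 0.0363 to 0.612) stayed below 0 in all 20. The count of all genes called, 83 as reported, was 44 with a pseudocount of 1, 22 without a filter, 147 at a mean FPKM of 1 or more, 49 with quantile normalization, 41 with scaling outside the mitochondrial chromosome, 21 without trend, 435 with array weights, 2 with the mitochondrial share as a covariate, 317 with limma voom and 204 among protein-coding genes. It ran from 7 to 726 when 1 library was left out, and 726 came without WT replicate 3 (the other fits gave 7 to 14). With the replicate block 11 genes were called, and Hlf was not among them. Over 11297 genes with a mean FPKM of 1 or more, the correlations of same-numbered deviations were -0.14, 0.01 and -0.08. Taken over so many genes together, they cannot decide whether a number marks a pair, and no label says what a number marks. The count of other pathway genes called, 1 as reported, was 0 without a filter, without trend, with the replicate block and with the mitochondrial share, and 0 to 1 when a library was left out. The median log2 fold change of the 10 clock genes was -0.31 with scaling outside the mitochondrial chromosome, and -0.20 to -0.017 when a library was left out.

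The direction turned for these genes. With scaling outside the mitochondrial chromosome the log2 fold change was -0.034 for Clock, -0.17 for Nr1d1 and -0.0032 for Fbxw11. With the mitochondrial share it was 0.15 for Npas2, 0.0053 for Cry1, -0.18 for Nr1d1 and 0.15 for Nr1d2. Nr1d1 was at -0.12 with quantile normalization and -0.00029 with array weights. When a library was left out, the range was -0.52 to 0.040 for Npas2, -0.32 to 0.0070 for Cry1, -0.097 to 0.032 for Cry2, -0.15 to 0.17 for Nr1d1 and -0.23 to 0.063 for Nr1d2. The cause was not tested. Arntl and Npas2 rest on few reads, and every comparison on 3 mice per group with no hour of collection given.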

Other observations

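The replicate numbers were also set beside the order of the libraries, a description added after the values were seen. The same number was highest in both groups for 6 of the 10 clock genes (Cry1, Nr1d1, Per1, Clock, Per2 and Cry2), against 33.0% of the 18035 genes, and lowest in both for 3 (Nr1d1, Arntl and Per2), against 34.7%. The full order was shared for Nr1d1 and Per2, against 16.0% of all genes. No label says that a number marks a shared day or litter.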
